A study of Mus musculus with 37 samples.

Results

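Mouse zinc finger genes with platform symbols from Zfp600 to Zfp999, an optional letter after the number included, were followed across cultures of primary astrocytes. The symbol alone chose them. Such a name was carried by 141 of the 18194 genes on the array, on 254 probe sets that each named 1 gene. The 188 genes with the symbols Zfp1 to Zfp599 served for comparison. The cells came from newborn mice, at postnatal day 0 to 1, of 2 inbred lines, 129S4/SvJae, here 129, and C57BL/6J, here B6. Cultures of either sex had received by electroporation pcDNA3.1-hygro with CDCA7L or pcDNA3.1-hygro alone, and the design describes the transfection as stable. Every group therefore carries the plasmid and was grown in serum, and no untransfected cells were measured. The 18 arrays of 129 cells comprised 4 female Cdca7l, 4 female vector, 5 male Cdca7l and 5 male vector cultures. The 19 arrays of B6 cells comprised 4 female Cdca7l, 5 female vector, 5 male Cdca7l and 5 male vector cultures. The titles give 22 clone labels within strain and sex, and a Cdca7l array and a vector array often share one. The design text calls the isolates independent.

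Most proteins with these names carry a row of C2H2 zinc fingers that bind DNA. Many also carry a KRAB domain, which recruits the corepressor Trim28 and with it the histone methyltransferase Setdb1 and heterochromatin proteins. A well-studied task of the KRAB class is the silencing of retroviruses and other transposable elements. The genes lie in clusters that grew by tandem duplication, so neighbours are often close copies and inbred strains can differ in them. The symbols form a catalogue and not a family by descent. They also include Zfp622, a factor in maturation of the large ribosomal subunit, and Zfp703, a transcriptional repressor whose human counterpart is amplified in breast cancers.

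The Cdca7l transcript itself had log2 values of 10.15 to 14.42 on the 18 Cdca7l arrays, with a median of 12.55, and of 4.12 to 10.43 on the 19 vector arrays, with a median of 8.24. Of 10 astrocyte markers, 9 exceeded background on most arrays, as did 3 of 14 microglial and 0 of 6 endothelial markers. So did 5 of 9 fibroblast and meningeal markers, 5 of 6 ependymal, 4 of 9 oligodendrocyte lineage and 4 of 10 neuronal ones. Of the fibroblast and meningeal markers Col1a1, Col1a2, Fn1, Pdgfrb and Foxc1 exceeded background on all 37 arrays. Among the microglial ones Fcer1g and Cd68 exceeded it on all 37 arrays, Laptm5 on 22, C1qb on 18, Tyrobp on 12 and Cx3cr1 on 0. Of the endothelial ones Flt1 did on 8 arrays, Kdr on 4, Tek on 1, and Cldn5, Pecam1 and Cdh5 on 0. Array values correlated at 0.911 to 0.998. The array labelled 129 female vector 1(3) had an upper quartile of 8.36, against 9.03 to 9.51 on the other 36. The array labelled B6 female vector 5.1(1) went against its sex label, with Xist at 2.40, against 10.71 to 12.20 on the 16 other female arrays, and the Y-linked Eif2s3y at 11.91, within the 11.73 to 12.71 of the male arrays. Counts are therefore also given without these arrays.

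A probe set was tested where its log2 value exceeded the median of the whole table, 3.189 and here called background, on at least 4 arrays. That left 123 of the 141 members, each represented by its highest-mean probe set, among 12121 genes. The mean log2 level of the tested members ran from 2.58 to 13.2, with a median of 8.11, and 19 members exceeded 10. Levels of different genes come from different probes and were not compared further. Zfp622 (13.2), Zfp664 (12.5) and Zfp703 (12.3) had the highest means. The 18 members not tested included Zfp711, the member on the X chromosome, which exceeded background on 1 array. They also included Zfp750, an epidermal differentiation factor, above background on 0 arrays, and Zfp804a, whose human counterpart is a psychosis risk gene, on 1 array. Of the tested members, 2 exceeded background in 1 strain alone: Zfp939, on 12 arrays of B6 and 0 of 129, and Zfp819, on 4 arrays of 129 and 0 of B6. These passed the filter only through the strain in which they were higher. Zfp874a and Zfp979 exceeded background on fewer than 4 arrays of 129, so they too passed the filter only through B6.

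Differences past the threshold were found between the strains. A gene was called where the adjusted p of limma, with Benjamini-Hochberg adjustment over 25579 probe sets, was under 0.05. Averaged over sex and construct, 31 of the 123 tested members were called (25.2%), against 26.9% of all 12121 genes, so the share called was near the background. The directions were uneven: 28 members were lower in 129 (22.8%; background 16.5%) and 3 were higher (2.44%; background 10.4%). These counts hold Zfp939 and Zfp819, without which they are 27 and 2. The 27 still hold Zfp874a and Zfp979, which also passed the filter only through B6. Of the 164 tested genes from Zfp1 to Zfp599, 26 were lower and 11 higher. The median difference, 129 minus B6, was -0.08 on the log2 scale for the members, -0.06 for Zfp1 to Zfp599 and -0.02 for all genes. After quantile normalization between arrays the members' split was 24 lower and 7 higher, and that of all genes 1858 lower and 1533 higher. The median differences were then -0.0171 for the members, -0.0247 for Zfp1 to Zfp599 and 0.00524 for all genes. In a fit that took clone labels as a random replicate block, 20 members were called, 18 lower and 2 higher, all among the 31, and 17.8% of all genes. Without both of the arrays named above 31 members were called, 27 lower and 4 higher. No share of all genes is given for that fit.

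Markers of other cells also differed between the strains; of all genes, 16.5% were lower in 129 and 10.4% higher. Of 9 tested fibroblast and meningeal markers, 5 were higher in 129 and 0 lower, and their mean log2 level was 6.37 to 12.9 on 129 arrays (median 8.65) and 6.35 to 7.94 on B6 arrays (median 7.17). Col3a1 averaged 8.04 in 129 and 2.47 in B6, and Col1a1 13.04 in 129 and 9.93 in B6. Of 10 tested astrocyte markers, 4 were lower in 129 and 0 higher, with a mean level of 9.05 to 12.6 on 129 arrays and 11.1 to 12.9 on B6 arrays. Among tested markers, calls were also found for oligodendrocytes (2 lower of 5), ependymal cells (2 lower of 5) and neurons (3 lower and 1 higher of 4). Of 2 tested endothelial markers 1 was higher in 129, and of 8 tested microglial markers 0 were called. In bulk cultures fewer cells of a type and less RNA per cell cannot be told apart, and the part of these markers in the members' differences was not tested.

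Zfp874a, a zinc finger gene on chromosome 13, had the largest strain difference among the members. Its log2 values were 2.23 to 3.36 on the 18 arrays of 129, with a median of 2.54, and 8.85 to 10.89 on the 19 arrays of B6, with a median of 10.42. The strains did not overlap, and 17 of the 129 arrays lay at or below background. The gene therefore passed the filter only through B6, and its p-value is no more than a description. The difference was -7.64 ± 0.146 (SE; limma adjusted p = 2.92e-28), and -7.11 with values under background raised to it. With values raised in this way it was -7.12 in Cdca7l arrays and -7.10 in vector arrays, and -7.04 in males and -7.19 in females. Among all genes, 0.363% had every 129 array below every B6 array, and 1 member, Zfp874a, did; 0.0908% had the reverse order, and 0 members did. The neighbouring Zfp874b differed far less, with log2 values of 6.54 to 8.21 in 129 (median 7.01) and 5.07 to 8.87 in B6 (median 7.92). The strains overlapped widely for it, the difference was -0.69 ± 0.212 (limma adjusted p = 0.0175), and the call was lost with the clone block (adjusted p = 0.0678).

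The promoter windows of these neighbours are shown because the pair differs so unequally between the strains. The windows come from RefSeq on GRCm38.p6, which is the B6 reference, and run from 250 bases before to 50 bases after the annotated start. The pair shared 241 of 300 aligned bases (80.3%). Capitals mark the bases with no identical partner in the other window.
Zfp874a (chr13:67451575-67451874, minus strand): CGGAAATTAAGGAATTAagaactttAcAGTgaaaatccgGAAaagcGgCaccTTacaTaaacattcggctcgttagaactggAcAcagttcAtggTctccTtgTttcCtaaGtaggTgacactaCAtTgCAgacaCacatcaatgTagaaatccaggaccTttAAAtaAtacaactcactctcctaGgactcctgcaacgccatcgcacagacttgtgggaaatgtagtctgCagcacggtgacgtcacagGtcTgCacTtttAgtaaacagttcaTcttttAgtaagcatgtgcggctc
Zfp874b (chr13:67484204-67484503, minus strand): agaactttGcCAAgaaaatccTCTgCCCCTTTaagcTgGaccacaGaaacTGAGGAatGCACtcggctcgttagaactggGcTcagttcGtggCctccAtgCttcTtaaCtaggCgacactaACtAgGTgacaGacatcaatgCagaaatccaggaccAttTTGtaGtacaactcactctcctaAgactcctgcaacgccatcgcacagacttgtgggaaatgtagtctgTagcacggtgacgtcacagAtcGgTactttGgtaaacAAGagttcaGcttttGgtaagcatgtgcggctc

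Zfp982 and Zfp994 followed in size. Zfp994, on chromosome 17, had log2 values of 4.99 to 6.85 in 129 (median 5.69) and 6.81 to 9.95 in B6 (median 8.80). It lay below every B6 array on 17 of the 18 arrays of 129, and the overlap came from 129 female vector 1(3) and B6 female vector 5.1(1). Its difference was -2.71 ± 0.254 (limma adjusted p = 1.30e-09). Zfp982, on chromosome 4, had log2 values of 3.44 to 8.67 in 129 (median 4.49) and 7.75 to 10.06 in B6 (median 8.98), a difference of -3.57 ± 0.463 (limma adjusted p = 9.20e-07). A probe set that names both Zfp982 and Gm13212 had -0.24 ± 0.126 and was not called (limma adjusted p = 0.162). The probe set behind -3.57 names Zfp982 alone in the annotation, but whether it matches other genes was not examined. The 129 cultures spread widely for Zfp982, and some clones kept their level across constructs. The clone 3(3) of 129 males had 7.28 on its Cdca7l array and 8.67 on its vector array. The clone 3(1) had 3.58 and 3.45 on its Cdca7l and vector arrays. Clones of 129 females did so less evenly, since clone 1(3) had 8.13 on its Cdca7l array and 4.43 on its vector array, while clone 4(1) had 7.29 and 7.63. The promoter windows of Zfp994 and Zfp982 are shown with capitals on matches to the CCAAT box (CCAAT) and the GC box (GGGCGG) on either strand. In the Zfp994 window a CCAAT box on the other strand overlaps a GC box, and a further CCAAT box follows; the Zfp982 window has 1 match to each.
Zfp994 (chr17:22225565-22225864, minus strand): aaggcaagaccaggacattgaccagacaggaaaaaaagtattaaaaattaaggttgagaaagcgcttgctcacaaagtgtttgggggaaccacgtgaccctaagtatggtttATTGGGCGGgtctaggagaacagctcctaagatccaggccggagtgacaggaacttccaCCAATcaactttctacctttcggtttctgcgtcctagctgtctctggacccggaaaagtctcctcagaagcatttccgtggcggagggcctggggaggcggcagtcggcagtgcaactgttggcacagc
Zfp982 (chr4:147442864-147443163, plus strand): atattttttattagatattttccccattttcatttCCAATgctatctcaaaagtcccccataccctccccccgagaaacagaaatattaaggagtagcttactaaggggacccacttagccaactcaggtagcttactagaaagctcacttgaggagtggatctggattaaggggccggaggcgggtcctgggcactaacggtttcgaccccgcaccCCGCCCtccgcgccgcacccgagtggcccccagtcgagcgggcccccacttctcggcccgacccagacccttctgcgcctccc

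**Figure D1:**
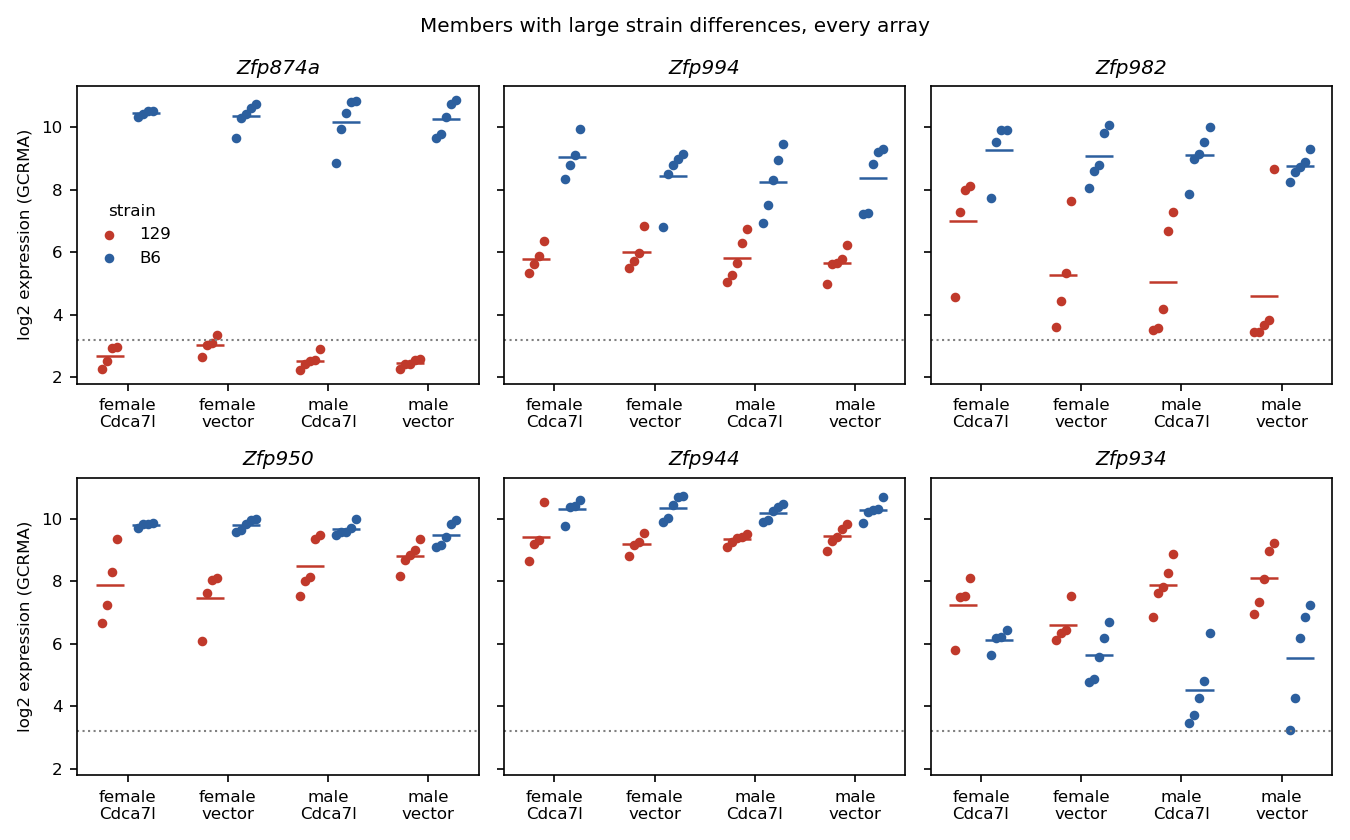
Log2 expression (vertical axis) of 6 members on every array, by sex and construct, with 129 arrays in red on the left and B6 arrays in blue on the right of each pair; short lines are group means and the dotted line is the background level of 3.189. Zfp874a arrays of the strains do not overlap, Zfp982 spreads from 3.44 to 8.67 in 129, and Zfp934 is the one shown that is higher in 129.

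Smaller differences followed. Zfp950 had log2 values of 6.10 to 9.48 in 129 (median 8.15) and 9.08 to 10.00 in B6 (median 9.71). B6 arrays lay close together while 129 arrays spread, and the difference was -1.53 ± 0.205 (limma adjusted p = 1.72e-06). Zfp944 had 8.65 to 10.53 in 129 (median 9.30) and 9.78 to 10.74 in B6 (median 10.31), and 16 of the 18 arrays of 129 lay below every B6 array. Its difference was -0.93 ± 0.13 (limma adjusted p = 3.03e-06). Zfp932, a KRAB protein that represses endogenous retroviruses in mouse embryonic stem cells, had 10.02 to 11.38 in 129 (median 10.79) and 10.76 to 11.82 in B6 (median 11.31). The ranges overlapped, and the difference was -0.57 ± 0.107 (limma adjusted p = 2.50e-04). Zfp809, which silences murine leukaemia virus through its primer binding site, was not called (0.16 ± 0.115, adjusted p = 0.317), nor was Zfp708 (-0.46 ± 0.426, adjusted p = 0.439).

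Of the remaining members with large negative differences, several had low levels in 129. Zfp939 lay below background on all 18 arrays of 129 and reached 6.18 in B6, where 7 of 19 arrays were also below background. It was at least 1.46-fold lower in 129, given as a description because it passed the filter only through B6. Zfp979 exceeded background on 3 arrays of 129 and 18 of B6, and its difference was -1.24 ± 0.264 (adjusted p = 9.66e-04). It too passed the filter only through B6, so its call is a description. Zfp882 had 3.46 to 8.37 in 129 (median 6.47) and 4.53 to 8.65 in B6 (median 8.02), with a difference of -1.37 ± 0.369 (adjusted p = 0.00719). Zfp758 differed by -1.12 ± 0.193, with 3.89 to 6.67 in 129 (median 5.59) and 5.79 to 7.95 in B6 (median 6.58; adjusted p = 8.28e-05). Zfp759 differed by -0.99 ± 0.276, with medians of 6.25 in 129 and 7.72 in B6 (adjusted p = 0.00924). Zfp651 had 3.72 to 9.75 in 129 (median 7.76) and 6.56 to 9.56 in B6 (median 8.94). Its difference of -0.98 ± 0.357 (adjusted p = 0.0426) was not called with the clone block (adjusted p = 0.122).

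Members with further named roles were among the genes lower in 129. Zfp608, which represses the recombination genes Rag1 and Rag2 in mouse thymocytes, had 3.83 to 9.27 in 129 (median 8.11) and 7.42 to 10.17 in B6 (median 9.04). Its difference was -1.37 ± 0.315 (limma adjusted p = 0.00203). Zfp704, a glucocorticoid-induced gene, had 5.76 to 11.35 in 129 (median 9.56) and 9.25 to 11.53 in B6 (median 10.68), a difference of -1.27 ± 0.308 (adjusted p = 0.00323). Zfp703 differed by -0.51 ± 0.156, with medians of 12.10 in 129 and 12.65 in B6 (adjusted p = 0.0163). Zfp687, whose human counterpart is mutated in Paget disease of bone, differed by -0.57 ± 0.168 (adjusted p = 0.0125). Zfp746, the parkin substrate also called PARIS, differed by -0.37 ± 0.12 (adjusted p = 0.0223; adjusted p = 0.0793 with the clone block). For these genes the strains overlapped on most arrays.

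The 3 members higher in 129 were Zfp934, Zfp955a and Zfp819. Zfp934, on chromosome 13, had log2 values of 5.81 to 9.22 in 129 (median 7.53) and 3.25 to 7.25 in B6 (median 5.65). Its difference was 2.00 ± 0.33 (limma adjusted p = 4.60e-05), and 12 of the 18 arrays of 129 exceeded every B6 array. It was 2.96 in males and 1.05 in females, but the interaction did not pass (1.91 ± 0.661, adjusted p = 0.197). Zfp955a had 10.81 to 12.21 in 129 (median 11.46) and 9.55 to 11.66 in B6 (median 11.06), a difference of 0.60 ± 0.16 (adjusted p = 0.00679). Zfp819 was near background in both strains, with medians of 2.38 in 129 and 2.32 in B6, and exceeded background on 4 arrays of 129 and 0 of B6. It passed the filter only through 129, and its call was lost with the clone block (adjusted p = 0.0904) and with values under background raised to it (adjusted p = 0.18).

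Of the 31 called members, the median size of the difference was 0.79 and 11 differed by more than 1 on the log2 scale. In 30 of the 31, the differences in the 4 combinations of sex and construct all had the sign of the averaged difference. The exception was Zfp746, at 0.07 in male vector arrays. The 31 were called on the average of these same 4 differences, so the shared sign is a description and no support. Its share among all called genes is not given. When each array was left out in turn, 25 of the 31 stayed called every time. Of 37 such fits, Zfp651 stayed called in 14, Zfp937 in 19, Zfp946 in 22, Zfp784 in 24, Zfp712 in 29 and Zfp995 in 31. The members lost with the clone block were these 6 together with Zfp874b, Zfp606, Zfp746, Zfp664 and Zfp819.

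**Figure D2:**
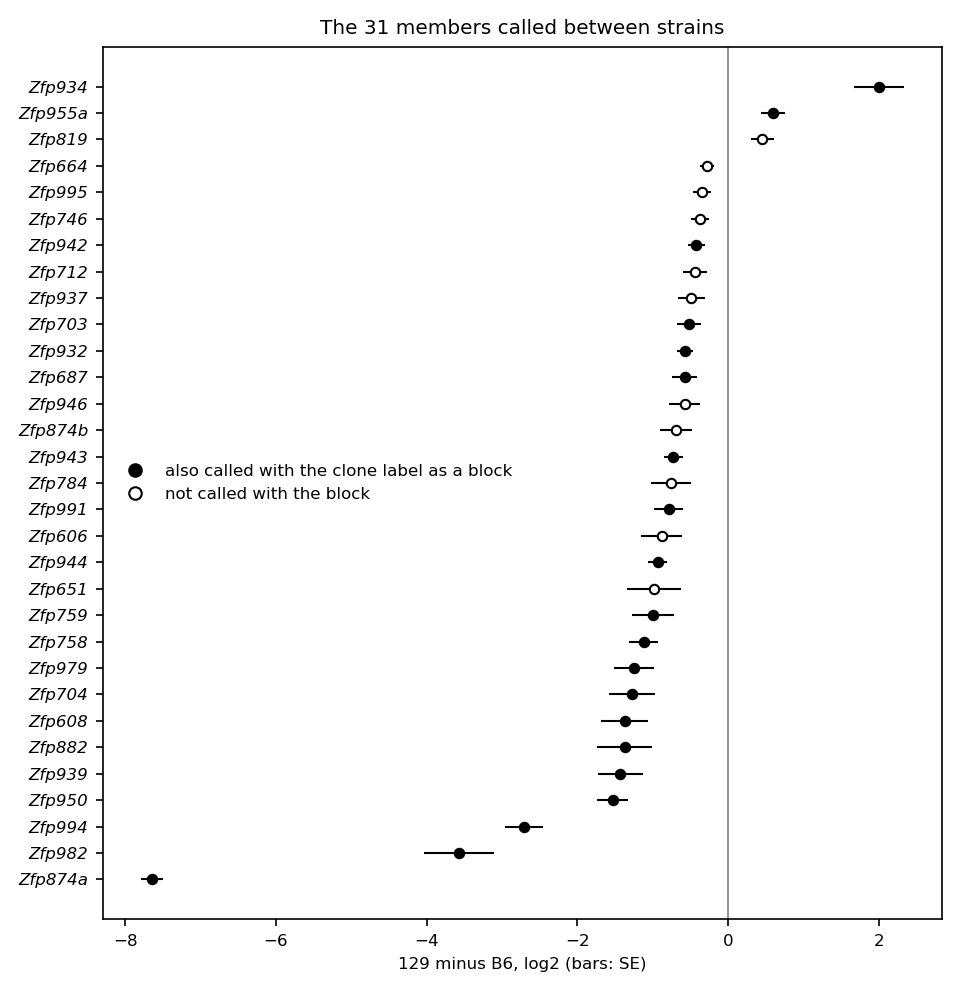
Difference 129 minus B6 on the log2 scale (horizontal axis, bars are SE) of the 31 members called, in order of size; filled points were also called with the clone label as a random block. Zfp874a at -7.64 stands apart at the bottom, and the 3 members higher in 129 are at the top.

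On chromosome 17, members that follow each other were lower in 129. That chromosome holds 22 members, all tested, of which 7 were lower in 129 and 1 was higher; among all 550 tested genes there, 15.6% were lower and 10.7% higher. The 7 lower members, Zfp995, Zfp942, Zfp943, Zfp994, Zfp944, Zfp758 and Zfp946, follow each other without another member between them, though another protein-coding gene lies on either side of Zfp994. Zfp820, the member before them, was not called (0.86 ± 0.488, adjusted p = 0.194). After them Zfp945 was not called at its highest-mean probe set (-0.27 ± 0.307, adjusted p = 0.539). Zfp995 and Zfp946 were no longer called with the clone block (adjusted p = 0.0791 and 0.102). Zfp943 had log2 values of 7.80 to 8.85 in 129 (median 8.22) and 7.80 to 9.55 in B6 (median 9.13), a difference of -0.73 ± 0.125 (limma adjusted p = 7.79e-05). Zfp942 had 9.55 to 10.21 in 129 (median 9.79) and 9.40 to 10.85 in B6 (median 10.24), a difference of -0.42 ± 0.114 (adjusted p = 0.00755). Both ranges in 129 lay within those of B6, but 13 B6 arrays for Zfp943 and 12 for Zfp942 exceeded every 129 array.

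Of these genes, 4 form 2 divergent pairs of similar sequence. Windows were found for 123 of the 141 members, and 2 pairs of members had windows that overlap on opposite strands. The starts of Zfp943 and Zfp942 lie 95 bases apart, and those of Zfp758 and Zfp944 lie 63 bases apart. The windows of Zfp943 and Zfp758 shared 292 of 300 aligned bases (97.3%), and those of Zfp944 and Zfp942 shared 274 (91.3%). All 4 genes were lower in 129, by 0.42 to 1.12 on the log2 scale. The windows of Zfp943 and Zfp758 are shown with capitals on bases that have no identical partner in the other. Nearly all capitals sit at an end of a window, where the annotated starts differ.
Zfp943 (chr17:21962309-21962608, plus strand): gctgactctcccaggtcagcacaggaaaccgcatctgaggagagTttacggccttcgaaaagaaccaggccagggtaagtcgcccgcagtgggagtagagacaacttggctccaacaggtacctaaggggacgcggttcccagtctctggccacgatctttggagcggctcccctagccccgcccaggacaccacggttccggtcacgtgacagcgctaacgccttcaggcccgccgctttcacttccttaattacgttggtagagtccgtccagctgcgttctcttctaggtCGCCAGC
Zfp758 (chr17:22361213-22361512, plus strand): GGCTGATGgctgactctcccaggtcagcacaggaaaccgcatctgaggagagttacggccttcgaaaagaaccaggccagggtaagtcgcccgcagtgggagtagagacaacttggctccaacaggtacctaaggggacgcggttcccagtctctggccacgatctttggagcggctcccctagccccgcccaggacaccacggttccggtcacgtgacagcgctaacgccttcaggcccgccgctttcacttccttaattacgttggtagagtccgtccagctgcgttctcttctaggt

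On chromosome 13, 4 of the 12 tested members were lower in 129 and 1 was higher; of all tested genes there, 17.7% were lower and 9.57% higher. Zfp935 and Zfp934 are neighbours there, and Zfp935 was not called (0.39 ± 0.358, adjusted p = 0.443). Across the genome 51 members lay in 20 runs of members with no other protein-coding gene between them, of which the longest held 4. Of the 47 tested members in runs 14 were called (29.8%), against 26.9% of all genes. On chromosome 7, which holds 34 members, 3 of the 29 tested were lower and 1 was higher, against 14.3% lower and 12.2% higher of all tested genes there. On chromosome 4, 3 of the 5 tested members were lower, namely Zfp982, Zfp979 and Zfp991, against 16.2% of all tested genes there. These counts hold members that passed the filter only through the strain in which they were higher. They are Zfp874a on chromosome 13, Zfp939 and Zfp819 on chromosome 7, and Zfp979 on chromosome 4. Zfp874a and Zfp819 are also among the called members in runs. The counts are therefore descriptions.

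**Figure D3:**
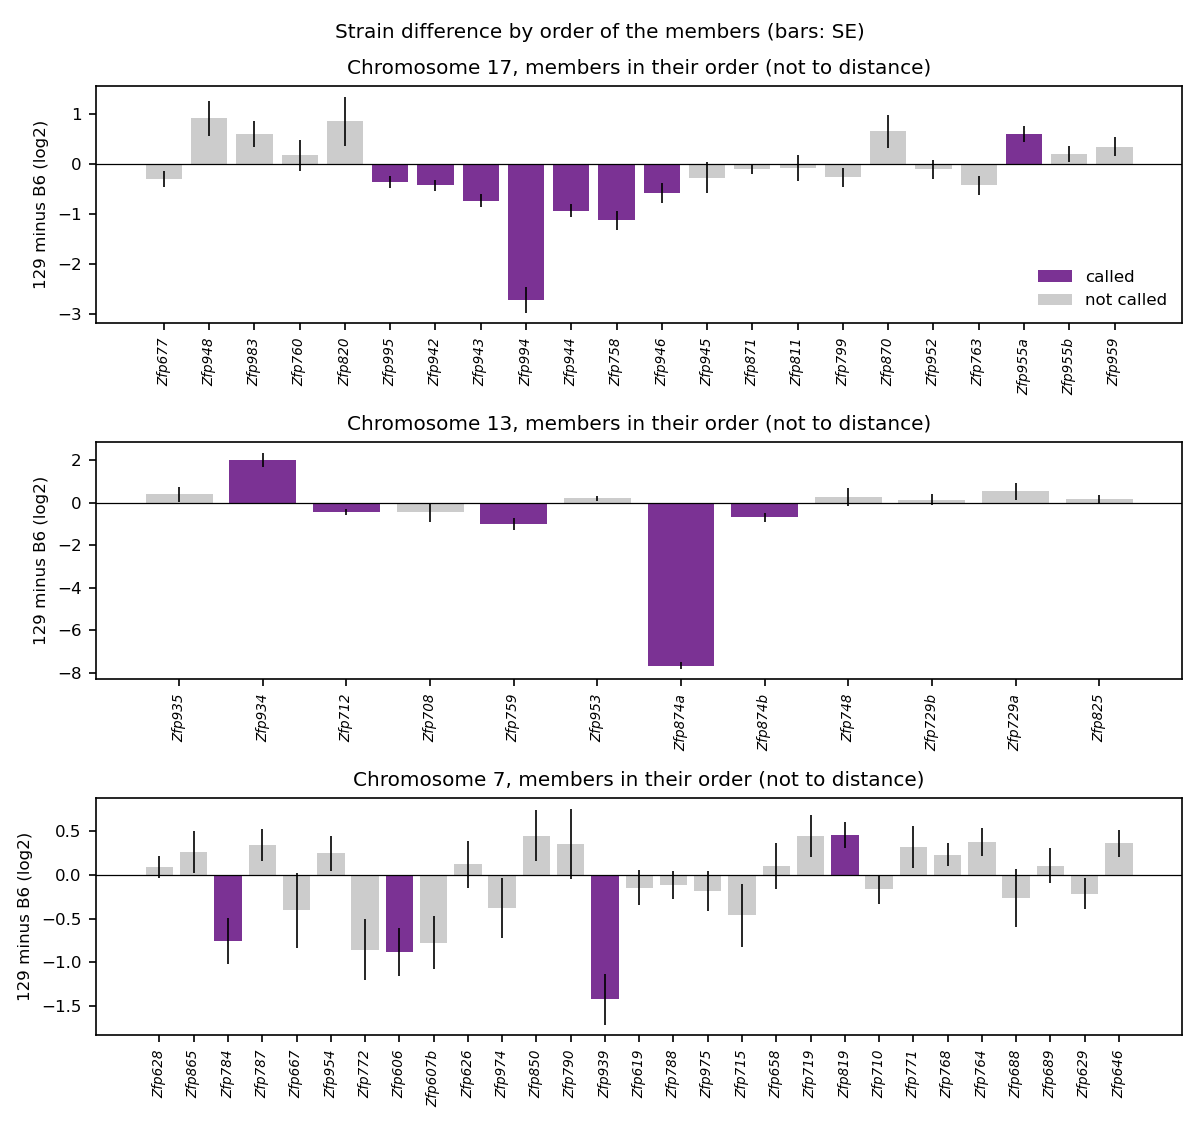
Difference 129 minus B6 on the log2 scale (vertical axis, bars are SE) of the tested members on chromosomes 17, 13 and 7, in their order along the chromosome and not to distance; called members are purple. The 7 members lower in 129 on chromosome 17 stand side by side, and Zfp874a with -7.64 stands out on chromosome 13.

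The promoter windows of all members were searched on both strands for 7 motifs. The CCAAT box was searched as CCAAT, the GC box as GGGCGG and the TATA box as TATAAA. The E-box was searched as CACGTG, the cyclic AMP response element (CRE) as TGACGTCA, the ETS motif as CCGGAAGT and the YY1 motif as AAGATGGC. A CCAAT box was present in 53.7% of the members' windows, against 39.2% for Zfp1 to Zfp599 and 39% for all 17492 protein-coding genes. A TATA box was present in 3.25%, against 8.78% for Zfp1 to Zfp599 and 13.3% for all. GC boxes were found in 48% of the members' windows, against 47.3% for Zfp1 to Zfp599 and 46.3% for all. E-boxes were found in 8.94%, against 5.41% for Zfp1 to Zfp599 and 7.9% for all. CRE letters were in 2.44%, against 3.38% for Zfp1 to Zfp599 and 2.34% for all. ETS letters were in 7.32%, against 12.2% for Zfp1 to Zfp599 and 5.29% for all. YY1 letters were in 4.88%, against 6.76% for Zfp1 to Zfp599 and 3.22% for all. Of these letters the windows of Zfp874a and of its neighbour Zfp874b each held 1 CRE. The median ratio of observed to expected CpG was 0.619 in the members, 0.684 in Zfp1 to Zfp599 and 0.576 in all. These are counts of letters, and neighbouring members share sequence.

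Probe sets of 1 gene did not always give the same answer. Over all 25579 tested probe sets, 25.2% were called between the strains, and of the members' 183 tested probe sets 42 were called. Of 41 members with more than 1 tested probe set, 26 had no call, 4 had every probe set called in the same direction, 10 had some called in 1 direction and 1 was called in both directions. The 4 were Zfp944, Zfp882, Zfp759 and Zfp942. The member called in both directions was Zfp991. Its highest-mean probe set differed by -0.79 ± 0.188 (limma adjusted p = 0.00281), with 8.62 to 10.86 in 129 and 9.32 to 11.10 in B6. Another probe set of Zfp991 had 2.57 to 6.55 in 129, above background on 16 of 18 arrays, and was below background on all 19 arrays of B6, so it was at least 3.65-fold higher in 129. That probe set passed the filter only through 129, so its call is no more than a description.

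Zfp945 showed the widest gap between probe sets. One of its 3 tested probe sets was below background on all 18 arrays of 129, at 2.42 to 2.61, and lay at 4.88 to 9.15 in B6, at least 21.3-fold lower in 129. It passed the filter only through B6, and this is a description. The highest-mean probe set of Zfp945 had 5.41 to 9.80 in 129 (median 8.48) and 6.08 to 9.70 in B6 (median 8.62), and it was not called. The third probe set was not called either (-0.42 ± 0.235, adjusted p = 0.188). Zfp729a likewise had 1 probe set with a difference of -1.69 ± 0.297 (adjusted p = 1.04e-04), while its highest-mean probe set had 0.54 ± 0.399. For Zfp950 a second probe set gave 0.26 ± 0.448, with values down to 3.37 in B6, against -1.53 at the highest-mean one. Zfp704, Zfp651 and Zfp955a each had a second probe set that differed in sign and was not called, at 0.07, 0.05 and -0.04. Zfp983 (1.21 and 0.65 at 2 lower-mean probe sets) and Zfp772 (-1.05) were called only at probe sets other than their highest-mean one. What lies behind these gaps was not tested.

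**Figure D4:**
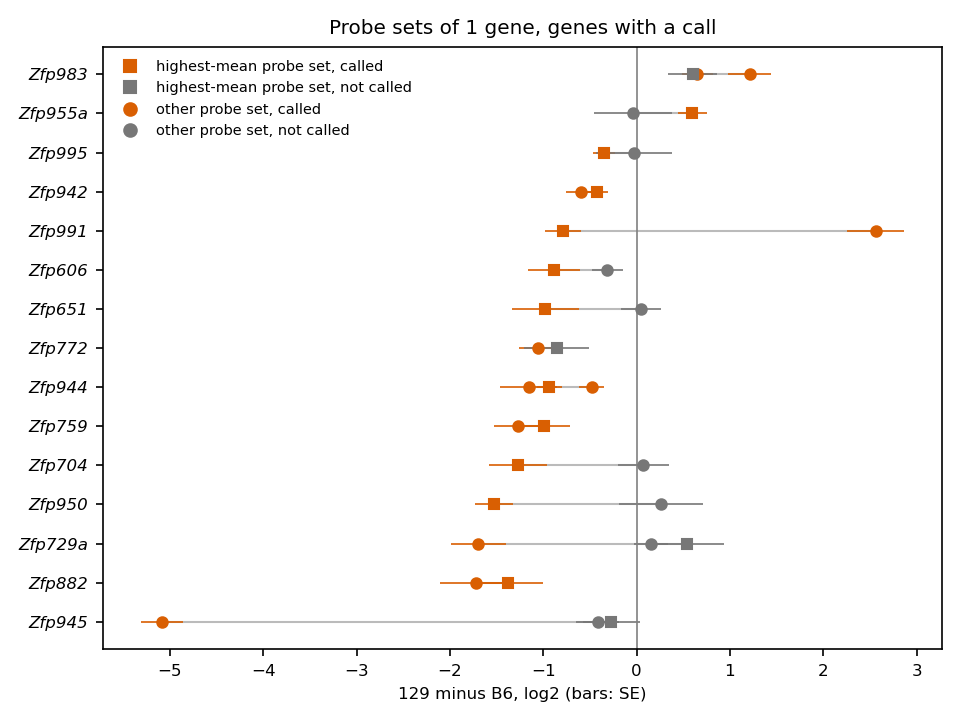
Difference 129 minus B6 on the log2 scale (horizontal axis, bars are SE) of each tested probe set, for members with more than 1 tested and at least 1 called; squares are highest-mean probe sets, circles others, and orange marks a call. Zfp945 spans -5.09 to -0.27, and Zfp991 lies on both sides of 0, with the probe set above 0 measured above background in 129 alone.

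Strain differences were also taken in Cdca7l and in vector arrays separately. In Cdca7l arrays 13 members were called (10.6%, background 5.87%), and in vector arrays 14 were called (11.4%, background 10.2%). In either set of arrays 2 of the calls were higher in 129, which is 1.63% of the members. Of all genes 1.71% were higher in Cdca7l arrays and 3.42% in vector arrays. The 8 members called in both sets were Zfp874a, Zfp982, Zfp994, Zfp950, Zfp944, Zfp758, Zfp943 and Zfp934, which make up 61.5% of the Cdca7l calls and 57.1% of the vector calls, and all 8 had the same sign. Over the 123 members the differences in the 2 sets correlated at r = 0.926, and at 0.855 without Zfp874a. The overlap and the correlation are descriptions across genes, and the sets share clones. The overlap among all genes is not given, so neither is read as particular to the members. The test of the change in strain difference with CDCA7L called 0 members (background 0%). Its unadjusted p was under 0.05 for 86 of the 12121 genes and for 1 member, Zfp605 (1.10 ± 0.511, limma adjusted p = 0.99995).

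**Figure D5:**
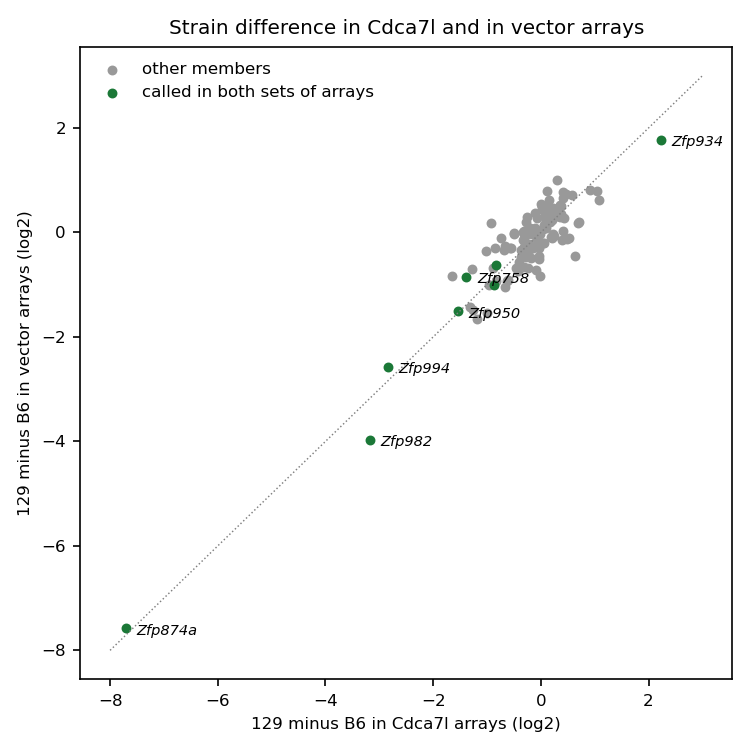
Difference 129 minus B6 in vector arrays (vertical axis, log2) against that in Cdca7l arrays (horizontal axis, log2) for the 123 tested members; green points were called in both and the dotted line marks equal differences. The 8 green members lie near the line, from Zfp874a at -7.71 and -7.58 to Zfp934 at 2.24 and 1.77.

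In females 20 members were called between the strains, 17 lower and 3 higher in 129 (background 19.3%), and in males 16 were called, 13 lower and 3 higher (background 9.56%). The female count was 17 without both of the arrays named above and 10 with the clone block, and 8 where female arrays were fitted alone. It was 13 without 129 female Cdca7l 4(1) and 30 without 129 female Cdca7l 1(3). After quantile normalization the female calls split into 12 lower and 12 higher. The male count was 9 with the clone block. These alternative counts are given without the share of all genes and are not read as a result about the members. The interaction of strain and sex called 0 members (background 0%) in limma. Its unadjusted p was under 0.05 for 1780 of the 12121 genes and for 14 of the 123 members. Among these 14, Zfp950 differed by -0.93 in males and -2.12 in females (interaction adjusted p = 0.197), and Zfp746 by -0.03 in males and -0.72 in females (interaction adjusted p = 0.197).

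CDCA7L changed no member past the threshold. In limma 0 of 123 were called between Cdca7l and vector arrays, against 0.0165% of all genes. At highest-mean probe sets the unadjusted p was under 0.05 for 135 of the 12121 genes and for 1 member. That was Zfp937, with log2 values of 7.30 to 8.58 on Cdca7l arrays (median 7.74) and 5.63 to 8.73 on vector arrays (median 7.59). The difference was 0.41 ± 0.178 (adjusted p = 0.999), with a 95% interval of 0.05 to 0.77. Lower-mean probe sets of Zfp729b (0.62 ± 0.162) and Zfp882 (0.81 ± 0.385) also had an unadjusted p under 0.05, each with adjusted p = 0.999. The mean of that Zfp729b probe set, 3.11, lay below background. Zfp758 had a difference of -0.39 ± 0.193 and Zfp819 of 0.29 ± 0.148, each with adjusted p = 0.999. The median difference of the members was 0.09, against 0.02 for all genes. With the clone label as a fixed replicate block, which compares Cdca7l and vector arrays of 1 clone, 0 members were called.

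Between the sexes 0 members were called in limma, against 0.297% of all genes. The unadjusted p was under 0.05 for 2183 of the 12121 genes and for 19 of the 123 members. Zfp825 had log2 values of 6.51 to 8.90 in males (median 8.004) and 7.05 to 9.45 in females (median 8.69), a difference of -0.68 ± 0.194 (adjusted p = 0.0992). Without the array whose sex label went against Xist it was -0.76 and called (adjusted p = 0.0474). Zfp608 had 6.00 to 10.17 in males (median 8.84) and 3.83 to 9.55 in females (median 8.06), a difference of 1.05 ± 0.315 (adjusted p = 0.111). Zfp758 had 3.89 to 6.98 in males (median 5.75) and 4.22 to 7.95 in females (median 6.36), a difference of -0.63 ± 0.193 (adjusted p = 0.116). The sexes overlapped for all 3. With an array left out, Zfp608 was called without 129 female Cdca7l 1(3) (adjusted p = 0.0343) or 129 male vector 3(3) (adjusted p = 0.0492), and Zfp758 without 129 female Cdca7l 2(3) (adjusted p = 0.0472).

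The partners of KRAB zinc fingers were read from a list of 41 genes for corepressors, heterochromatin proteins and DNA methylation, of which 37 were on the array and 33 tested. Between the strains 5 were higher in 129 and 1 lower, together 18.2%, against 26.9% of all genes (10.4% higher and 16.5% lower), with a median difference of 0.03. Trim28, the corepressor that KRAB domains bind, averaged 12.33 in 129 and 11.98 in B6 (0.38 ± 0.0932, limma adjusted p = 0.00403). Hells, a chromatin remodeller needed for DNA methylation, averaged 8.99 in 129 and 7.36 in B6 (1.61 ± 0.417, adjusted p = 0.00552). Daxx, a chaperone of the histone variant H3.3, averaged 9.33 in 129 and 8.75 in B6 (0.60 ± 0.162, adjusted p = 0.00739). Zfp57, a KRAB zinc finger protein that keeps imprints, averaged 4.64 in 129 and 2.76 in B6 (1.84 ± 0.605, adjusted p = 0.0254). Its mean in B6 lay below background, so the difference was measured against background. Pphln1, a subunit of the HUSH silencing complex, averaged 12.2 in 129 and 11.9 in B6 (0.26 ± 0.0977, adjusted p = 0.0479; 0.0931 with the clone block). Atf7ip, which stabilises Setdb1, was the one lower in 129, with 11.2 in 129 and 11.6 in B6 (-0.44 ± 0.0907, adjusted p = 6.75e-04). Between Cdca7l and vector arrays 0 of the list were called.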

How the data were processed

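RNA of 37 cultures was measured on 37 arrays. The table the authors deposited holds log2 values of 45101 probe sets, made with GCRMA and Partek 6.5 per the submitters' processing notes; joint or separate normalization of the arrays is not stated. Values (1.17 to 15.3) were used as deposited. Gene names came from the platform annotation; all 141 members matched RefSeq GRCm38.p6 by Entrez ID, which gave chromosome and order. Probe sequences were not used, so matches to either strain or to near-identical paralogs were not examined.

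A single fit in limma 3.58.1 (R 4.3.3) covered every array, with 8 group means, 9 comparisons, moderated variances and 29 residual degrees of freedom. Adjusted p-values are limma's unless another test is named. The filter left 25579 probe sets; 64 controls were left out and 19458 did not pass. Depth does not apply to log2 intensities; precision is set by how many arrays a group has. Where a group lay below background on every array, folds are lower bounds, written "at least". The fit was tested on simulated data.

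Named with values were up to 12 called members with the largest difference in each direction, members called in an interaction, the 3 with the smallest p for CDCA7L and for sex, the 3 with the highest mean, called members whose probe sets differ in direction, members on the X chromosome, the corepressor list and runs of neighbours; members with well-known roles were added after their values were seen. Members and lists were chosen with earlier results of these data known.

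For Cdca7l and vector arrays with 1 clone label, deviations from group means were correlated: B6 females had 3 pairs at 0.432 to 0.775 and B6 males 4 pairs at 0.376 to 0.572, so labels pair arrays there. In 129 females (0.061 to 0.716) and males (-0.0887 to 0.623) not every pair did. The correlation within clone labels was 0.409, so p-values without the block treat related arrays as separate.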

Additional observations from a re-analysis of the deposited data

Results flagged for a closer look

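For 12 members, each of the 8 groups was examined for an array far from the others, and 9 of 96 pairs of gene and group had one; chance gives about 1 in 20.

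Among 129 arrays, Zfp982 was 8.67 on male vector 3(3), while the other 4 lay at 3.44 to 3.82. On the same array Zfp882 was 5.84, with the nearest at 6.70. Zfp943 was 8.01 on male Cdca7l 1(4), with the nearest at 8.33. Zfp758 was 4.22 on female Cdca7l 2(3), with the nearest at 5.95. Zfp932 was 11.38 on female Cdca7l 1(3), with the nearest at 10.83.

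Among B6 arrays, female vector 5.1(1), whose sex label went against Xist, had Zfp994 at 6.81, with the nearest at 8.52, and Zfp955a at 10.12, with the nearest at 11.06. Zfp932 was 10.76 on female vector 2.1(1), with the nearest at 11.31. Zfp950 was 9.69 on female Cdca7l 4(5), with the nearest at 9.83, in a group whose range was narrow. The part of any technical property of these arrays was not tested.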

How the results depend on the processing

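No alternative turned the direction of a called member. Of the 31 members called between strains, 19 were tested and called under every alternative, and Zfp939 was called under all those that tested it, which leaves out the stricter filter. The alternatives were the clone block, no filter, a stricter filter, quantile normalization, values below background raised to it, a trended robust prior, array weights, each array left out, and either or both of the arrays that stood apart left out. The averaged strain count was 20 with the random replicate block, 45 with array weights (36.6% of the members, against 50.4% of all genes) and 26 with no filter; leaving out each array gave 26 to 37. With array weights, whose estimate stopped before convergence, the counts were 25 in vector arrays, 44 in Cdca7l arrays, 53 in females, 22 between sexes and 24 for strain by sex. The random replicate block gave 10 in females and 9 in males, and females fitted alone gave 8. Between sexes, 1 member (Zfp825) was called without B6 female vector 5.1(1) and 1 without both arrays. Leaving out each array gave 10 to 17 in vector arrays, 9 to 17 in Cdca7l arrays, 13 to 30 in females, 12 to 18 in males, 0 to 3 between sexes, 0 to 1 for strain by sex, and 0 for Cdca7l minus vector and for strain by Cdca7l. The female count was 30 without 129 female Cdca7l 1(3) and 13 without 129 female Cdca7l 4(1); the sex count of 3 (Zfp704, Zfp687 and Zfp608) came without 129 female Cdca7l 1(3). The members' median strain difference was -0.0759 in the main fit, -0.134 to -0.0413 with each array left out and -0.0171 after quantile normalization. Every alternative run moved it by less than the array-to-array SD, 0.425. That SD is larger than the median difference itself, so this is no test of stability. The fixed replicate block gave 0 for both Cdca7l tests. The causes of these shifts were not tested. Where no share of all genes stands beside a count here, that count is not read as a result about the members.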

Other observations

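Probe sets that name several genes were kept out of the comparisons. Of 19 that carry a name from Zfp600 to Zfp999, 2 were called between the strains. That naming Rex2, Zfp980 and Zfp600 averaged 4.38 in 129 and 3.27 in B6 (1.11 ± 0.243, limma adjusted p = 0.00134). That naming Gm3055 and Zfp781 averaged 5.60 in 129 and 7.37 in B6 (-1.78 ± 0.344, limma adjusted p = 3.32e-04), and its arrays ran from 4.79 to 6.44 in 129 and from 5.01 to 10.30 in B6. The probe set shared by Zfp944 and Zfp942, both lower in 129 at their own probe sets, had -0.61 ± 0.292 and was not called (adjusted p = 0.12). That shared by Zfp982 and Gm13212 had -0.24 ± 0.126 (adjusted p = 0.162), against -3.57 at the probe set that names Zfp982 alone. The annotation gives these names, and whether either probe set matches other genes was not examined.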
